A study of Homo sapiens with 8 samples.

Results

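Serine, asparagine and amino acid transport genes are described here in SUDHL-4, an established human cell line from a diffuse large B-cell lymphoma with germinal-centre features. The 10 genes were taken by symbol, with earlier results of these data known. All 10 were among the 15597 genes listed for every library. They are ASNS for asparagine synthesis, PHGDH, PSAT1 and PSPH for serine synthesis, SHMT2 and MTHFD2 for mitochondrial one-carbon metabolism, and SLC7A11, SLC7A5, SLC3A2 and SLC1A5 for amino acid transport. RNA was sequenced from 8 libraries in 4 groups of 2. These were FDX1-OE cells in elesclomol (ES), FDX1-OE cells in DMSO, control cells of WT genotype in ES, and control cells of WT genotype in DMSO. FDX1-OE stands for overexpression of FDX1, the gene of the mitochondrial iron-sulfur protein ferredoxin 1. ES is a small molecule that carries copper into cells, and it was given at 5 nM. All groups were taken at 48 h. The vector and promoter behind FDX1-OE, whether the cells were 1 clone, and whether control cells carried an empty vector are not stated in the labels. Nothing in the labels ties the replicates to separate cultures. The p-values therefore cover only the spread between these libraries, which may be technical.

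Cells make serine from a glycolytic intermediate through PHGDH, PSAT1 and PSPH in that order, and asparagine from aspartate through ASNS. SHMT2 then passes the carbon unit of serine onto folate inside mitochondria, where MTHFD2 acts after it, and the unit feeds nucleotide synthesis. SLC7A5 and SLC7A11 are light chains that reach the cell surface bound to the shared heavy chain SLC3A2. The pair of SLC7A5 and SLC3A2 imports large neutral amino acids such as leucine, the pair of SLC7A11 and SLC3A2 imports cystine in exchange for glutamate, and SLC1A5 carries glutamine. The transcription factor ATF4, whose translation rises when the initiation factor eIF2 is phosphorylated, is known to bind and activate many of these genes, and MYC is known to activate several of them in lymphoma.

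Library totals lay between 33435438 and 35883528 reads. FDX1 stood at 82.5 and 84.8 FPKM (fragments per kilobase of gene, scaled to the library total) in FDX1-OE ES libraries and 72.4 and 69.9 in FDX1-OE DMSO libraries. In control ES libraries it stood at 21.3 and 21.4, and in control DMSO libraries at 25.6 and 22.2, so the groups matched their labels. All 8 B-cell markers looked at averaged at least 1 FPKM in each group. Of 6 myeloid markers listed, CD14, LYZ, CSF1R and ITGAM averaged below 1 FPKM in each group. The other two were CD68 and FCER1G, and the summed myeloid markers were 36.7 and 39.7 FPKM in FDX1-OE ES, 7.07 and 8.18 in FDX1-OE DMSO, 12.3 and 16.5 in control ES, and 4.03 and 4.3 in control DMSO libraries. The 6 epithelial and stromal markers summed to 1.64 and 1.78 FPKM in FDX1-OE ES, 0.408 and 0.447 in FDX1-OE DMSO, 0.695 and 0.85 in control ES, and 0.287 and 0.466 in control DMSO libraries. The 5 T and NK cell markers listed summed to 7.6 and 8.48 FPKM in FDX1-OE ES, 5.23 and 7.19 in FDX1-OE DMSO, 7.09 and 7.41 in control ES, and 4.1 and 5.03 in control DMSO libraries, nearly all of it CD3E. These sums were highest in the same libraries as several genes below, and their part in those values was not tested.

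The promoters of ASNS, PSAT1 and MTHFD2 are printed because these genes rose together in FDX1-OE cells under ES. The RefSeq promoter table (GRCh38.p14, 250 bases before to 50 after a transcript start, 5′ to 3′ on the strand of the gene) held 12 windows for 7 of the 10 genes. PSPH, SHMT2 and SLC7A11 were not matched. The windows were searched on both strands for TGATGNAA, the letters bound by ATF4 paired with a C/EBP factor, and capitals mark a match. The windows lie at chr7:97872359-97872658 on the minus strand for ASNS, chr9:78296875-78297174 on the plus strand for PSAT1 and chr2:74198365-74198664 on the plus strand for MTHFD2.
ASNS: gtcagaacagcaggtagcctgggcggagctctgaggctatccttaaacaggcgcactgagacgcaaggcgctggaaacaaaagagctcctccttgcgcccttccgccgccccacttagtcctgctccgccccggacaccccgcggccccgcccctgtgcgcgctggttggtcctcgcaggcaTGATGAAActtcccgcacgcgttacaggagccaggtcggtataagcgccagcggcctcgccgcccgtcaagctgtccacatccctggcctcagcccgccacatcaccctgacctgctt
PSAT1: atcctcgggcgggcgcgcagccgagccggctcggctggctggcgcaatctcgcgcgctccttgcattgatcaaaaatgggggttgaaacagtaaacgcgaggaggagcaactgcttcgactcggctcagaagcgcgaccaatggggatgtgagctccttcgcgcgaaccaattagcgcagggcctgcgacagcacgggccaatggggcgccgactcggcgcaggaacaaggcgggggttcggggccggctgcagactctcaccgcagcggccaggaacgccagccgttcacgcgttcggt
MTHFD2: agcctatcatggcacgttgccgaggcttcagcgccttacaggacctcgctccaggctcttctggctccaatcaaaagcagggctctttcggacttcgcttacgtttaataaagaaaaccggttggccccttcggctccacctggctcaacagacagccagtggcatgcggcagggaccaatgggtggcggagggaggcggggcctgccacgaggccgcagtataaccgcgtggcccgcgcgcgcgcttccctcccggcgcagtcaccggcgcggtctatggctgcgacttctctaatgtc
ASNS held a match at position -68 from its start, and the PSAT1 and MTHFD2 windows held none. Matches were in 3 of the 12 windows, against 3.62% of all 35116 windows in the table. The other two matches were in SLC3A2 and SLC1A5. The one in SLC3A2 reads on the opposite strand from position 38, and that in SLC1A5 lies at position -97 of the most downstream of its 3 windows. CACGTG, the E-box that MYC and MAX bind, was searched as an addition after the values were seen. It stood in 2 of the 12 windows, one of SLC7A5 and the middle one of SLC1A5, against 7.26% of all windows. No match of one motif overlaps a match of the other, and the stretches around these matches are printed because the transporters did not share 1 pattern.
SLC3A2, TGATGNAA, chr11:62881716-62881748, plus strand: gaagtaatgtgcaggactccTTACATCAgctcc
SLC1A5, TGATGNAA, chr19:46784884-46784931, minus strand: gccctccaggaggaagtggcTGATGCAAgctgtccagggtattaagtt
SLC1A5, CACGTG, chr19:46787318-46787363, minus strand: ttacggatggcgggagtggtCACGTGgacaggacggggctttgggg
SLC7A5, CACGTG, chr16:87869612-87869657, minus strand: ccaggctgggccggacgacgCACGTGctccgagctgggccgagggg
A match describes letters in a window and not binding in these cells.

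By mean level over the 8 libraries, SHMT2 ranked 204 and SLC7A5 ranked 341 of the 15597 genes. ASNS, SLC1A5, SLC3A2 and MTHFD2 lay close together at ranks 746 to 781, and PSAT1 ranked 1199. PSPH ranked 3588, SLC7A11 ranked 9375 and PHGDH ranked 15479. PSPH, the enzyme after PSAT1 in the serine pathway, thus had a lower transcript level per length than PSAT1 itself.

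**Figure D1:**
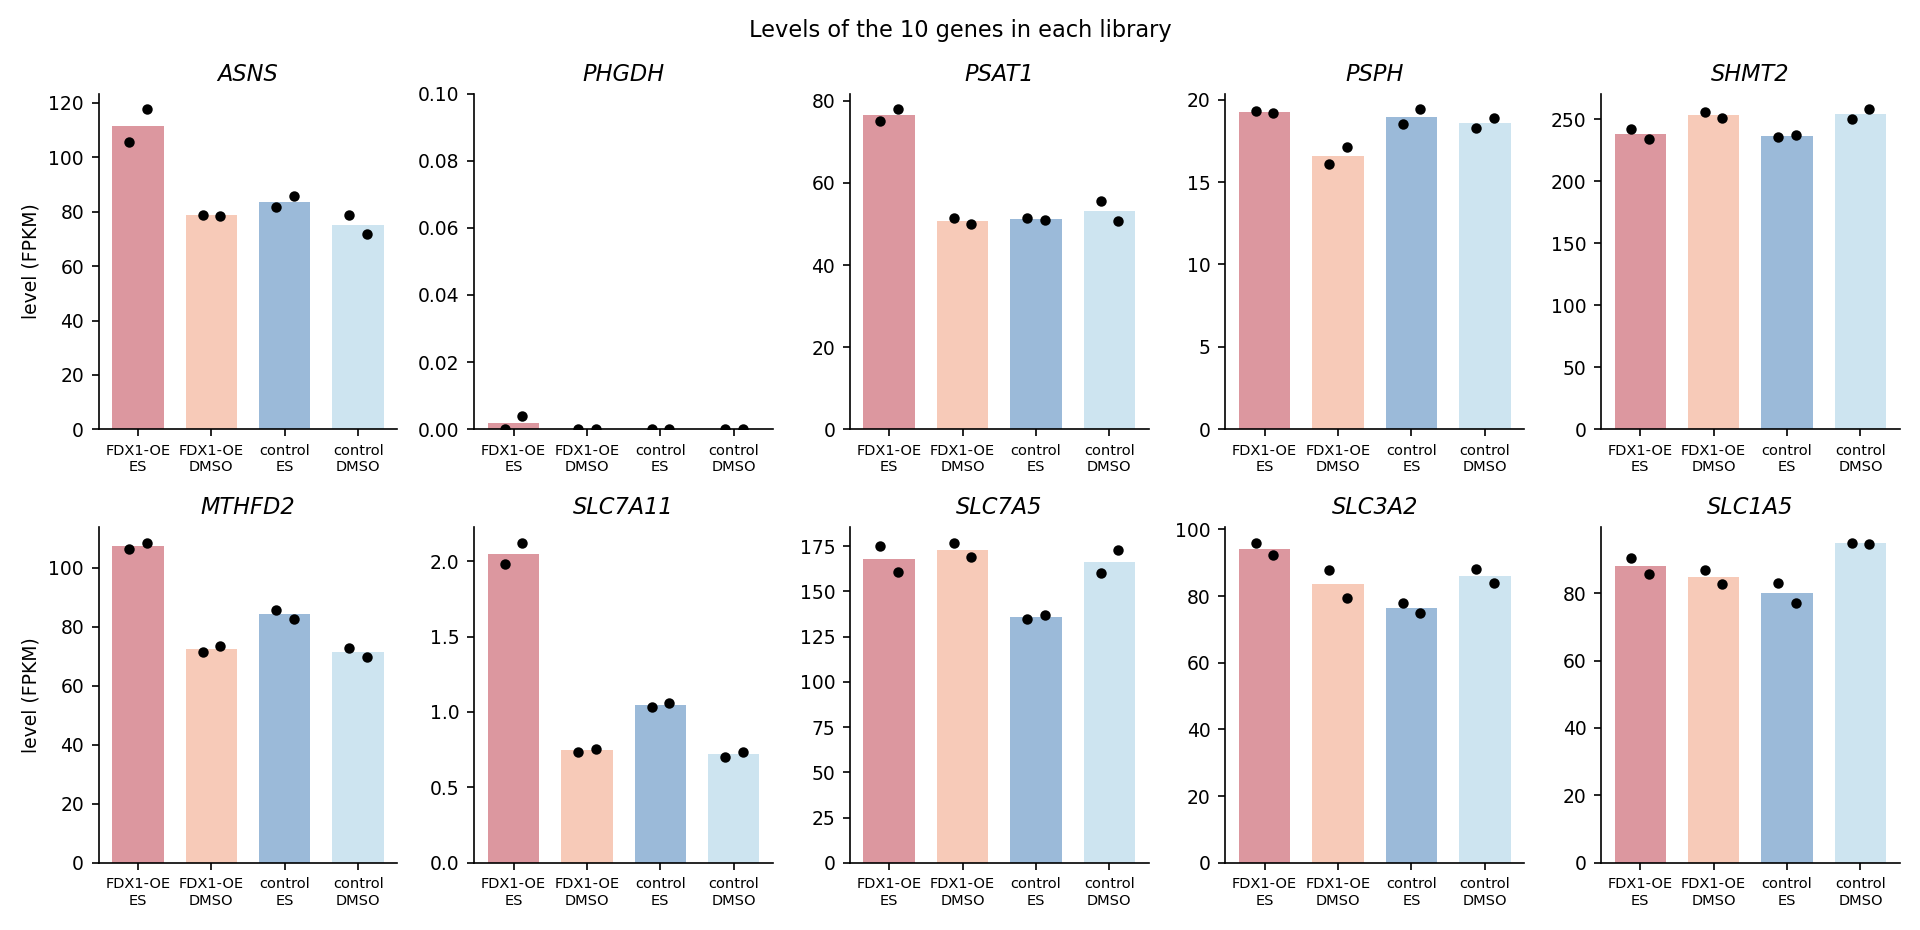
FPKM of each of the 10 genes in each library, with 1 point a library and a bar at the mean of each group, on an axis of its own for each gene. ASNS, PSAT1, MTHFD2 and SLC7A11 were highest in both FDX1-OE ES libraries, SLC7A5 was lowest in both control ES libraries, and PHGDH was at or near 0 throughout.

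ASNS, which makes asparagine from aspartate and glutamine, rose under ES in FDX1-OE cells. It stood at 105.51 and 117.61 FPKM in FDX1-OE ES and at 78.7 and 78.6 FPKM in FDX1-OE DMSO libraries. Control cells had 81.6 and 85.8 FPKM in ES and 78.9 and 71.7 FPKM in DMSO libraries. FDX1-OE ES libraries were above all others, and control ES libraries lay above both DMSO groups by little. The ES difference in FDX1-OE cells was 0.50 ± 0.07 (SE) on the scale of log2(FPKM + 1), a fold of 1.41 with a 95% interval of 1.28 to 1.56 (limma, adjusted p = 0.000116). In control cells ES gave a log2 difference of 0.15 ± 0.07 (SE), which did not pass (adjusted p = 0.0922). In bulk RNA, a change in the number of cells that express a gene and a change in RNA per cell cannot be told apart.

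PHGDH, the first and committed enzyme of serine synthesis, was listed at 0 in 7 of the 8 libraries. It stood at 0.00387 FPKM in the second FDX1-OE ES library, with no read number that could be fixed. For scale, 3 reads of a gene of 1 kilobase come to 0.0836 to 0.0897 FPKM at these depths, so PHGDH lay below that floor everywhere and was not tested. None of 10 housekeeping genes was at 0 in any library. Whether the annotation or the counting behind the FPKM gave these zeros could not be checked, so they are not read as absence of PHGDH transcripts.

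PSAT1, the aminotransferase that follows PHGDH, was high in FDX1-OE ES alone. It stood at 75.2 and 77.9 FPKM in FDX1-OE ES and at 51.5 and 49.9 FPKM in FDX1-OE DMSO libraries. In control cells it stood at 51.4 and 51.0 FPKM in ES and at 55.7 and 50.8 FPKM in DMSO libraries. Both FDX1-OE ES libraries stood clear of the other 6, and the other 3 groups overlapped in turn with their neighbours in level. ES raised PSAT1 in FDX1-OE cells 1.50-fold (1.37 to 1.64, adjusted p = 1.6e-05). In control cells the fold was 0.964 (0.884 to 1.05, adjusted p = 0.487).

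PSPH, the phosphatase that completes serine synthesis, varied little. It stood at 19.3 and 19.2 FPKM in FDX1-OE ES and at 16.1 and 17.1 FPKM in FDX1-OE DMSO libraries. Control cells had 18.5 and 19.4 FPKM in ES and 18.3 and 18.9 FPKM in DMSO libraries. FDX1-OE DMSO was the one group below the others, and the other 3 overlapped in turn with their neighbours in level. The ES fold in FDX1-OE cells was 1.15 (1.05 to 1.26) and passed (adjusted p = 0.0133). Relative log expression (RLE) scaling ended that call (0.36), as did leaving out replicate 1 of FDX1-OE DMSO (0.107) or of FDX1-OE ES (0.0506).

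SHMT2, which moves the carbon unit of serine onto folate in mitochondria, was the most abundant of the 10, and its highest library exceeded its lowest by 1.10 times. It stood at 241.94 and 233.73 FPKM in FDX1-OE ES and at 256.01 and 250.81 FPKM in FDX1-OE DMSO libraries. Control cells had 235.26 and 237.28 FPKM in ES and 250.07 and 257.75 FPKM in DMSO libraries. All 4 ES libraries lay below all 4 DMSO libraries, by a small margin. The ES fold was 0.939 in FDX1-OE cells (0.875 to 1.01, adjusted p = 0.11) and 0.931 in control cells (0.868 to 0.998, adjusted p = 0.0961). With RLE scaling both passed as lower in ES, with a log2 change of -0.24 (adjusted p = 0.00152) in FDX1-OE cells and -0.19 (adjusted p = 0.00859) in control cells.

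MTHFD2, the mitochondrial dehydrogenase and cyclohydrolase that acts after SHMT2, rose under ES in both genotypes. It stood at 106.46 and 108.38 FPKM in FDX1-OE ES and at 71.3 and 73.5 FPKM in FDX1-OE DMSO libraries. Among control cells the values were 85.6 and 82.7 FPKM in ES and 72.7 and 69.9 FPKM in DMSO libraries. The groups lay in the order FDX1-OE ES, control ES and then both DMSO groups, which overlapped each other. The ES fold was 1.48 in FDX1-OE cells (1.37 to 1.59, adjusted p = 8.46e-06) and 1.18 in control cells (1.09 to 1.27, adjusted p = 0.00426).

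SLC7A11, the light chain of the cystine and glutamate exchanger, had the largest ES fold of the 9 genes tested in FDX1-OE cells, at a low level. It stood at 1.98 and 2.12 FPKM in FDX1-OE ES libraries (670 and 729 reads) and at 0.737 and 0.752 FPKM in FDX1-OE DMSO libraries (253 and 245 reads). In control cells it stood at 1.03 and 1.06 FPKM in ES libraries (336 and 349 reads) and at 0.703 and 0.735 FPKM in DMSO libraries (238 and 257 reads). No groups overlapped, although FDX1-OE DMSO and control DMSO were nearly level. The ratio of mean FPKM, ES to DMSO, was 2.75 in FDX1-OE cells and 1.45 in control cells. On the scale of FPKM + 1, which understates changes at this level, the folds were 1.75 (1.53 to 1.99, adjusted p = 2.79e-05) in FDX1-OE cells and 1.19 (1.04 to 1.35, adjusted p = 0.0415) in control cells. A fit to reads recovered from the FPKM (voom) gave log2 changes of 1.46 in FDX1-OE cells (adjusted p = 4.79e-08) and 0.54 in control cells (adjusted p = 0.00867). The call in control cells did not pass when any 1 of the 8 libraries was left out (adjusted p between 0.057 and 0.139), nor with RLE scaling (0.0802), in a fit to the 4 control libraries alone (0.0747) or with a replicate block (0.0515).

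SLC7A5, the light chain of the leucine transporter, was lower under ES in control cells and not detectably changed in FDX1-OE cells. It stood at 175.03 and 160.86 FPKM in FDX1-OE ES and at 176.8 and 169.06 FPKM in FDX1-OE DMSO libraries. Control cells had 134.9 and 136.87 FPKM in ES and 160.14 and 172.84 FPKM in DMSO libraries. Control ES libraries were the lowest, and the other 3 groups overlapped. The ES fold was 0.971 in FDX1-OE cells (0.888 to 1.06, adjusted p = 0.548) and 0.818 in control cells (0.748 to 0.894, adjusted p = 0.00325). With RLE scaling, SLC7A5 was also lower in FDX1-OE ES than in FDX1-OE DMSO (log2 change -0.19, adjusted p = 0.021).

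SLC3A2, the heavy chain, moved in opposite directions in the 2 genotypes by small amounts. It stood at 95.9 and 92.3 FPKM in FDX1-OE ES and at 87.9 and 79.4 FPKM in FDX1-OE DMSO libraries. Among control cells the values were 77.9 and 74.9 FPKM in ES and 88.1 and 83.9 FPKM in DMSO libraries. FDX1-OE ES libraries were highest and control ES libraries lowest, with overlapping DMSO groups between them. The ES fold was 1.12 in FDX1-OE cells (1.03 to 1.23, adjusted p = 0.0322) and 0.890 in control cells (0.812 to 0.975, adjusted p = 0.0463). Neither call was stable. The one in FDX1-OE cells was lost with RLE scaling (0.729), with no filter on low values (0.065), and without FDX1-OE DMSO replicate 2 (0.277), FDX1-OE ES replicate 1 (0.145) or replicate 2 (0.053). The one in control cells was lost with no filter (0.0976) and without control DMSO replicate 1 (0.212) or 2 (0.0719), control ES replicate 1 (0.0751) or 2 (0.182), or either FDX1-OE ES replicate (0.0524 each).

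SLC1A5, the glutamine carrier, was lower under ES in control cells. It stood at 90.4 and 85.6 FPKM in FDX1-OE ES and at 86.9 and 82.7 FPKM in FDX1-OE DMSO libraries, which overlapped. Among control cells the values were 82.9 and 77.1 FPKM in ES and 94.9 and 94.7 FPKM in DMSO libraries, which did not. The ES fold was 1.04 in FDX1-OE cells (0.952 to 1.13, adjusted p = 0.438) and 0.845 in control cells (0.776 to 0.92, adjusted p = 0.00666). The call in control cells missed the threshold without control ES replicate 2 (adjusted p = 0.0502).

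Set against other light chains that pair with SLC3A2, SLC7A5 supplied most of the transcripts per length and SLC7A11 a small part. SLC7A5 made up 79.4% to 83.2% of the summed FPKM of SLC7A5, SLC7A6, SLC7A7, SLC7A8 and SLC7A11 in every library. SLC7A11 made up 0.94% and 1.09% of that sum in FDX1-OE ES and 0.342% and 0.362% in FDX1-OE DMSO libraries. It made up 0.613% and 0.612% in control ES and 0.354% and 0.348% in control DMSO libraries. SLC7A5 therefore exceeded SLC7A11 by 88.5 and 75.8 times in FDX1-OE ES, 240 and 225 times in FDX1-OE DMSO, 131 and 130 times in control ES, and 228 and 235 times in control DMSO libraries. SLC7A5, PSPH, PSAT1 and MTHFD2 have closely similar pseudogene copies in the human genome, and the labels do not say how reads shared with these were counted, so their levels are uncertain to that extent.

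**Figure D2:**
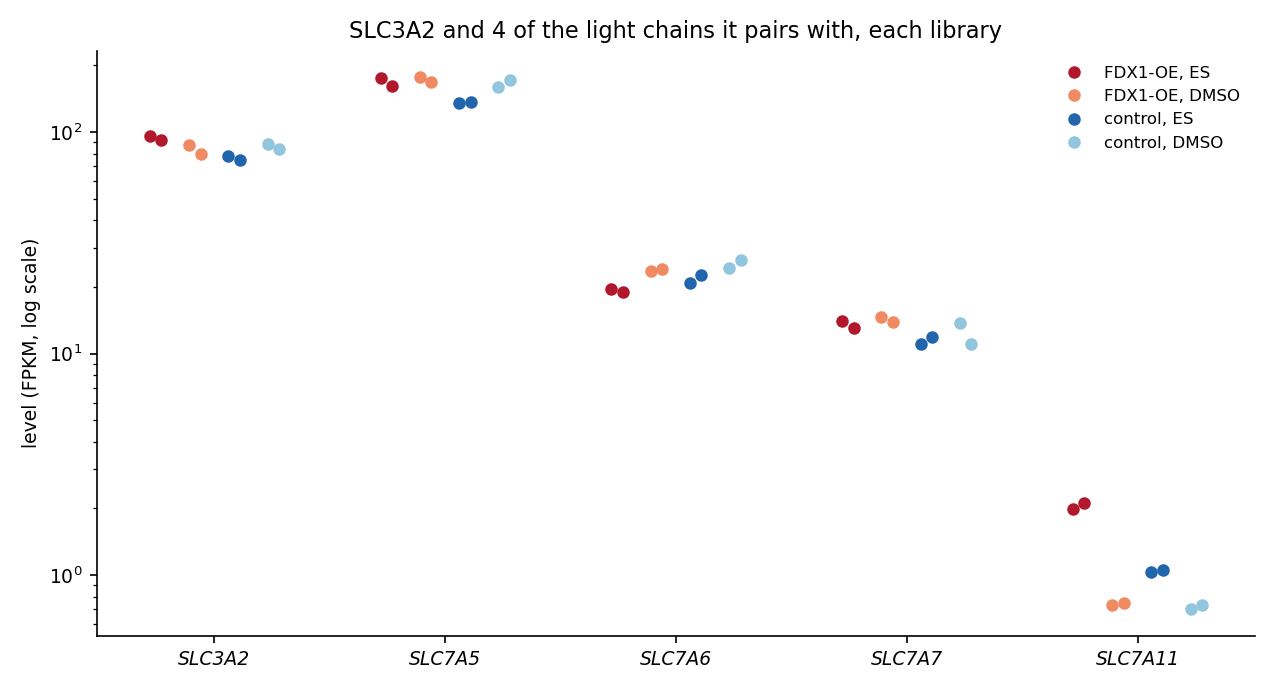
FPKM on a log axis of the heavy chain SLC3A2 and of 4 light chains in each library, with 1 point a library and groups side by side. SLC7A5 lay above SLC3A2 in every library, and SLC7A11, the lowest of the 5 genes, was highest in the FDX1-OE ES libraries at 1.98 and 2.12 FPKM.

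Over the 9 genes tested, 6 were called higher and none lower under ES in FDX1-OE cells, where 56.2% of the 9805 genes tested were called, 37% higher and 19.2% lower. The 6 were ASNS, PSAT1, PSPH, MTHFD2, SLC7A11 and SLC3A2. No gene of the 9 was lower at an unadjusted p below 0.05 or in the voom fit, neither of which used RLE scaling. The median log2 change was 0.20 over the 9 genes and 0.09 over all genes tested. SLC7A11 entered the test only through its ES libraries, so its calls under ES in both genotypes are a description. Its 4 DMSO libraries were below the 1 FPKM that the filter asks of 2 libraries. The other 8 genes were at or over 1 FPKM in every library. RLE scaling moved the median of all genes to -0.03 and the calls over all genes to 2354 higher and 3107 lower, against 3632 higher and 1878 lower. Under that scaling ASNS (log2 change 0.35), PSAT1 (0.44), MTHFD2 (0.42) and SLC7A11 (0.72) still passed, and PSPH and SLC3A2 did not. SHMT2 (-0.24, adjusted p = 0.00152) and SLC7A5 (-0.19, adjusted p = 0.021) then passed as lower. Of the 9 genes, RLE scaling thus gave 4 higher and 2 lower.

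In control cells ES gave 2 higher genes, MTHFD2 and SLC7A11, and 3 lower genes, SLC7A5, SLC3A2 and SLC1A5. Over all genes 38.4% were called, 25.5% higher and 12.9% lower, so higher calls among the 9 were near the background. The 3 lower genes were all transporters, with log2 changes of -0.29, -0.17 and -0.24. The median over the 9 genes was -0.05, against 0.06 over all genes. RLE scaling moved the calls over all genes to 1682 higher and 2124 lower, against 2498 higher and 1269 lower. MTHFD2 stayed higher under it (0.15, adjusted p = 0.0352), and of the 9 genes 1 was then higher and 4 lower. SHMT2 joined the 3 transporters as lower (log2 change -0.19, adjusted p = 0.00859). Leaving out 1 library left between 2 and 4 of the 5 calls. The lowest number came without control ES replicate 2, and 3 calls were left without control ES replicate 1, either control DMSO replicate or either FDX1-OE ES replicate.

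**Figure D3:**
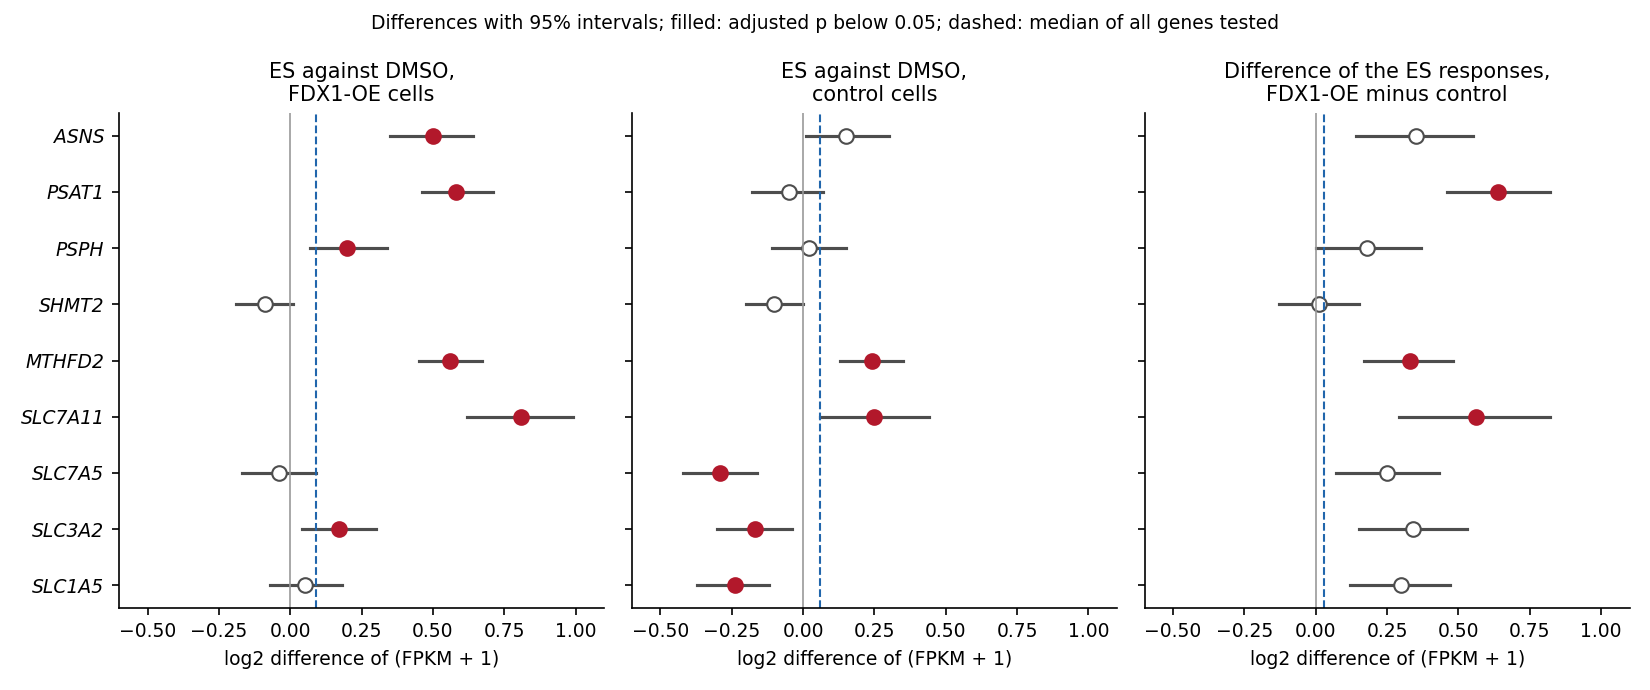
Log2 difference in log2(FPKM + 1) for each of the 9 genes tested, with 95% intervals from limma, for ES against DMSO in FDX1-OE cells, ES against DMSO in control cells, and the first minus the second. Filled points had an adjusted p below 0.05, and dashed lines mark the median of all genes tested. ES differences in FDX1-OE cells ran from -0.09 for SHMT2 to 0.81 for SLC7A11, and in control cells from -0.29 for SLC7A5 to 0.25 for SLC7A11.

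Without ES, FDX1 overexpression gave no called change in these genes. In DMSO, FDX1-OE against control cells, limma called 0 of the 9 (adjusted p between 0.507 and 0.996), as did the voom fit, and 0.51% of all genes tested, 0.428% higher and 0.0816% lower. At an unadjusted p below 0.05, 2 of the 9 were lower in FDX1-OE cells, and the share of all genes at that threshold was not taken. The folds were 0.896 (0.818 to 0.982) for PSPH and 0.895 (0.822 to 0.975) for SLC1A5. The intervals of the other 7 lay within 0.875 to 1.16.

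Under ES, 6 genes were called higher in FDX1-OE than in control cells and none lower, where 21.4% of all genes were called, 13.6% higher and 7.78% lower. The folds were 1.33 for ASNS (1.20 to 1.47, adjusted p = 0.00246), 1.48 for PSAT1 (1.36 to 1.62, adjusted p = 0.000158) and 1.27 for MTHFD2 (1.18 to 1.37, adjusted p = 0.00125). They were 1.49 for SLC7A11 (1.31 to 1.70, adjusted p = 0.00159), 1.23 for SLC7A5 (1.13 to 1.35, adjusted p = 0.00557) and 1.23 for SLC3A2 (1.12 to 1.35, adjusted p = 0.00695). SLC7A5 and SLC3A2 thus joined this group although their ES folds in FDX1-OE cells were 0.971 and 1.12. In control cells their ES folds were 0.818 and 0.890. For SLC1A5 the fold was 1.10 (1.01 to 1.20, adjusted p = 0.108), for PSPH 1.02 (0.928 to 1.11) and for SHMT2 1.01 (0.939 to 1.08). No gene of the 9 was lower at an unadjusted p below 0.05 or by voom. SLC7A11 passed the filter only through ES libraries, so its call here is a description. This comparison shares its FDX1-OE ES libraries with the ES comparison in FDX1-OE cells. It shares its control ES libraries with the ES comparison in control cells. The SLC3A2 call was lost without control ES replicate 2 (0.0571) or FDX1-OE ES replicate 1 (0.0527). The calls over all genes numbered 2094, and 748 without control ES replicate 2, 867 without FDX1-OE ES replicate 1 and 1302 without FDX1-OE ES replicate 2.

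The interaction, which is the ES change in FDX1-OE cells minus the ES change in control cells, asks whether the 2 genotypes differed in their response. It was called for PSAT1, MTHFD2 and SLC7A11, each with a larger rise in FDX1-OE cells. Over all genes 4.3% were called, 3.25% in that direction and 1.05% in the other. SLC7A11 passed the filter only through its ES libraries, so its call is a description. PSAT1 differed by 0.64 ± 0.08 on the log2 scale (SE, adjusted p = 0.00366), MTHFD2 by 0.33 ± 0.07 (adjusted p = 0.032) and SLC7A11 by 0.56 ± 0.12 (adjusted p = 0.034). The estimates were 0.35 for ASNS (adjusted p = 0.0629), 0.34 for SLC3A2 (0.0511), 0.30 for SLC1A5 (0.0611) and 0.25 for SLC7A5 (0.112), none of which passed. In alternatives, SLC3A2 passed with a mean of at least 5 FPKM (0.0458), voom (0.0226), a replicate block (0.0265) and without FDX1-OE DMSO replicate 1 (0.0497). SLC1A5 passed with voom (0.0298), the block (0.0398) and without control ES replicate 1 (0.0395), and ASNS with voom (0.0248). PSPH had 0.18 (0.233) and SHMT2 0.01 (0.936). At an unadjusted p below 0.05, 7 of the 9 were positive and 0 negative. The share of all genes at that threshold was not taken, so this count is a description. Voom called 6 of the 9 positive and 0 negative, where it called 641 of all genes, 400 positive and 241 negative. PSAT1 passed in each of the alternatives run (adjusted p between 0.000423 and 0.0312). MTHFD2 and SLC7A11 passed without control ES replicate 1 and missed the threshold without any one of the other 7 libraries (0.0622 to 0.118 for MTHFD2 and 0.0846 to 0.0993 for SLC7A11). MTHFD2 also missed it with no filter on low values (0.051), and SLC7A11 with log2(FPKM + 0.1), where its difference was 0.87 (adjusted p = 0.0653), against 0.93 by voom (0.0135). The interaction calls over all genes, 422 in number, fell to between 79 and 190 without any one of those same 7 libraries.

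**Figure D4:**
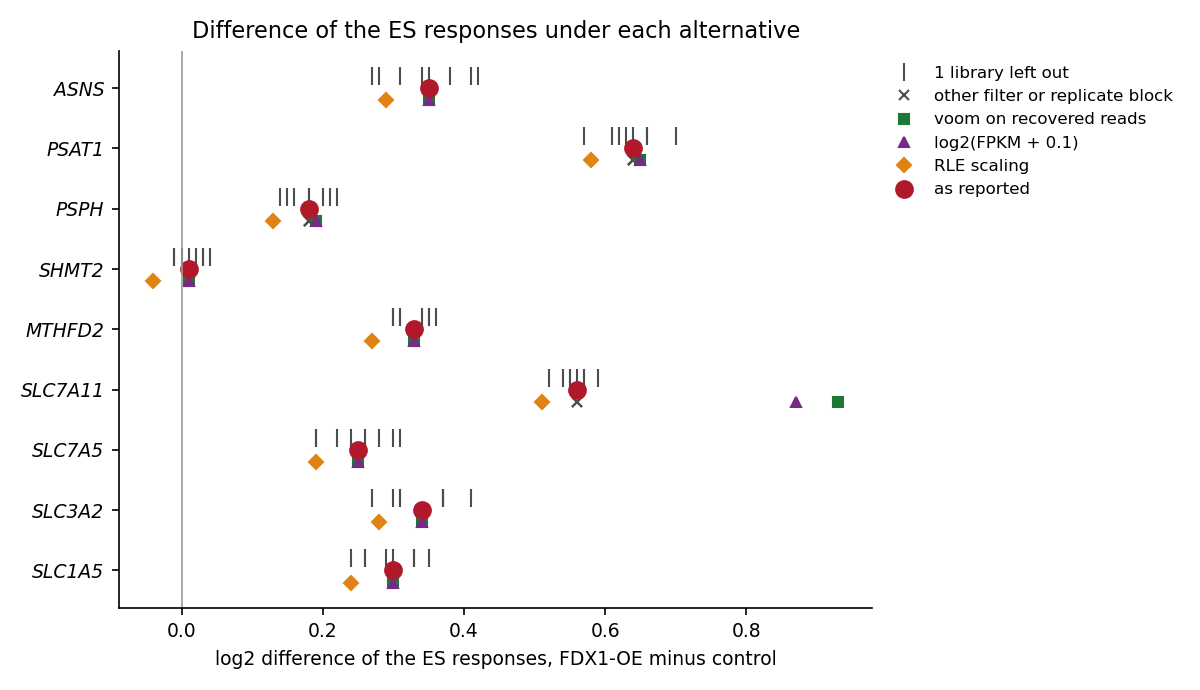
Interaction of each of the 9 genes tested on the log2 scale, with a circle for the value as reported and other symbols for RLE scaling, log2(FPKM + 0.1), voom, other filters or the replicate block, and each library left out. The values of 8 genes stayed above 0 throughout, SHMT2 lay about 0, and SLC7A11 was at 0.87 with log2(FPKM + 0.1) and 0.93 with voom.

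Beside these genes, 4 further lists were read off the same fit, with counts over the tested members of each. Of 16 regulators and stress genes of the ATF4 response, 14 rose and 1, MYC, fell under ES in FDX1-OE cells (median log2 change 0.61), and 11 rose and 2, MYC and DDIT4, fell in control cells (median 0.36). Over all genes tested, 37% were higher and 19.2% lower in FDX1-OE cells, and 25.5% were higher and 12.9% lower in control cells. The list counts and medians include CHAC1 and ATF3, which passed the filter only through ES libraries and are a description. ATF4 itself, which is regulated mainly in translation, stood at 80.7 and 84.1 FPKM in FDX1-OE ES, 72.3 and 67.4 in FDX1-OE DMSO, 85.2 and 81.0 in control ES, and 64.4 and 66.1 in control DMSO libraries. Its transcript rose under ES in both genotypes, by 0.24 on the log2 scale in FDX1-OE cells (adjusted p = 0.00424) and by 0.34 in control cells (adjusted p = 0.000979), and it showed no called difference between genotypes in ES (-0.01, adjusted p = 0.903). RLE scaling ended the ATF4 call in FDX1-OE cells (0.09, adjusted p = 0.175), as did leaving out FDX1-OE DMSO replicate 2 (0.0503).

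The interaction passed for ATF5, PPP1R15A and SESN2 of this list, with larger rises in FDX1-OE cells. ATF5, a mitochondrial stress factor, stood at 164.44 and 158.86 FPKM in FDX1-OE ES, 29.1 and 27.3 in FDX1-OE DMSO, 87.1 and 79.8 in control ES, and 25.3 and 26.4 in control DMSO libraries. Its log2 change under ES was 2.48 in FDX1-OE cells and 1.65 in control cells. CHAC1, which degrades glutathione, had a log2 difference of 1.68 in FDX1-OE cells and 0.51 in control cells, and ATF3 one of 1.61 in FDX1-OE cells and 0.55 in control cells. CHAC1 reached 1 FPKM only in ES libraries and ATF3 only in FDX1-OE ES libraries, so the filter let them in through the groups where they were high, and their values are a description. PPP1R15A, which recruits the phosphatase of eIF2, changed by 1.56 in FDX1-OE cells and 0.87 in control cells. SESN2, an inhibitor of mTORC1, changed by 1.41 in FDX1-OE cells and 0.76 in control cells. The interaction was 0.83 for ATF5 (adjusted p = 0.00211), 0.69 for PPP1R15A (0.0196) and 0.64 for SESN2 (0.0255). The other interaction calls of the list were CHAC1, ATF3 and, named after their values were seen, CEBPB, TRIB3 and DDIT4. EIF2AK2, a kinase of eIF2, was large enough in change to be named but lay past the 6 largest. It rose by 0.70 in FDX1-OE cells and by 0.66 in control cells, with an interaction of 0.04 (adjusted p = 0.876). Between genotypes it was higher in FDX1-OE cells in DMSO (0.51, adjusted p = 0.0274) and in ES (0.56, adjusted p = 0.00201). The call in DMSO was lost with no filter. It was also lost when either library of control cells in DMSO was dropped. The same held on dropping replicate 2 of FDX1-OE cells, whether that in DMSO or that in ES. DDIT3, which encodes CHOP, rose by 0.88 in FDX1-OE cells and by 0.37 in control cells, with an interaction of 0.51 (adjusted p = 0.0537). Its call in control cells missed the threshold with no filter (0.0598) and without control DMSO replicate 1 (0.0637). Interaction calls of this list numbered 8 of the 16 tested, CHAC1 and ATF3 among them as a description. That is 50%, all positive, against 3.25% positive and 1.05% negative over all genes tested. The 8 calls became 5 with log2(FPKM + 0.1) and 3 with no filter. They became 4 without control DMSO replicate 2, FDX1-OE DMSO replicate 2 or control ES replicate 2, and 3 without FDX1-OE ES replicate 1.

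MYC stood at 121.76 and 132.42 FPKM in FDX1-OE ES, 186.21 and 190.6 in FDX1-OE DMSO, 136.99 and 155.17 in control ES, and 162.63 and 181.78 in control DMSO libraries. It fell under ES by 0.57 on the log2 scale in FDX1-OE cells (adjusted p = 9.98e-05) and by 0.24 in control cells (adjusted p = 0.0265). The interaction was -0.33 and did not pass (adjusted p = 0.0946). With no filter the call in control cells was lost (0.107), and likewise on leaving out control DMSO replicate 2 (0.19) or control ES replicate 1 (0.189).

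**Figure D5:**
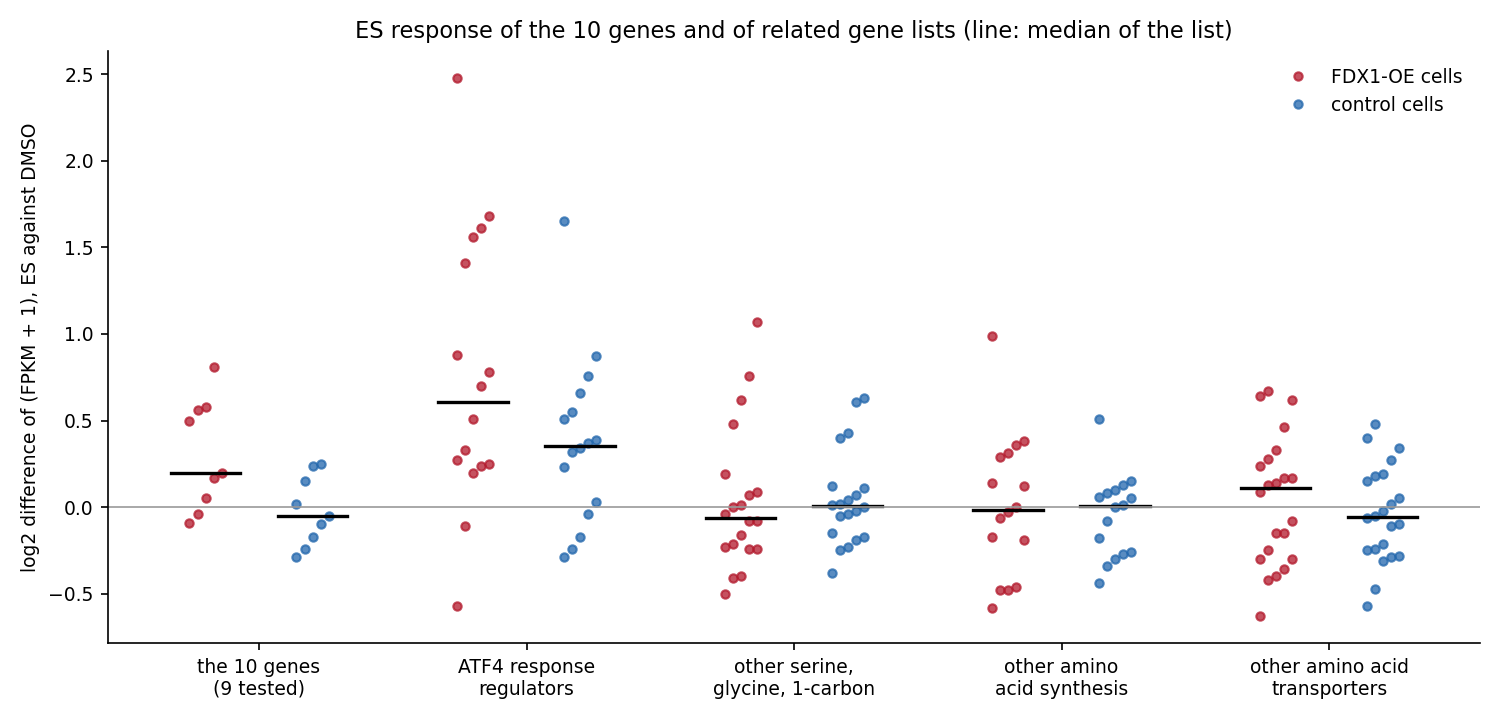
Log2 change under ES in FDX1-OE cells and in control cells for each tested gene of the 10 members and of the 4 further lists, with 1 point a gene and a line at the median. The list of ATF4 regulators had medians of 0.61 in FDX1-OE cells and 0.36 in control cells, and the other 3 lists had medians between -0.06 and 0.11.

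Other genes of serine, glycine and one-carbon metabolism did not share the direction of PSAT1 and MTHFD2. Of 20 tested, 4 rose and 8 fell in FDX1-OE cells, and 4 rose and 4 fell in control cells. These are 20% higher and 40% lower in FDX1-OE cells, against 37% and 19.2% of all genes, and 20% each way in control cells, against 25.5% and 12.9% of all genes. TYMS, thymidylate synthase, stood at 217.1 and 209.83 FPKM in FDX1-OE ES, 139.32 and 137.09 in FDX1-OE DMSO, 213.69 and 190.91 in control ES, and 130.92 and 130.3 in control DMSO libraries. Its log2 changes under ES were thus near equal, at 0.62 in FDX1-OE cells and 0.63 in control cells. SLC25A32, the mitochondrial folate carrier, fell by 0.50 in FDX1-OE cells and by 0.38 in control cells. SRR, which makes D-serine, rose by 0.76 in FDX1-OE cells and by 0.61 in control cells. AMT, a subunit of the glycine cleavage system that reached 1 FPKM only in ES libraries and passed the filter through them, had log2 differences of 1.07 in FDX1-OE cells and 0.43 in control cells, the second a call lost with no filter (0.0712) or on leaving out either control DMSO replicate 2 (0.165) or control ES replicate 2 (0.132). AMT is counted among the genes that rose, as a description. The interaction was called for 0 of the 20 by limma, where 4.3% of all genes were called. By voom it was called for 2 of the 20, and for 641 genes in all. At an unadjusted p below 0.05 it held for 6 of the 20, and the share of all genes at that threshold was not taken. The 8 calls in control cells became 5 on leaving out control DMSO replicate 1 or control ES replicate 2, and 4 without control DMSO replicate 2.

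Among 16 other genes of amino acid synthesis, 5 rose and 4 fell in FDX1-OE cells, and 1 rose and 6 fell in control cells. These are 31.2% higher and 25% lower in FDX1-OE cells, near the 37% and 19.2% of all genes, and 6.25% higher and 37.5% lower in control cells, against 25.5% and 12.9% of all genes. PYCR1, the mitochondrial enzyme of proline synthesis, stood at 68.8 and 62.0 FPKM in FDX1-OE ES, 103.66 and 93.0 in FDX1-OE DMSO, 71.6 and 70.9 in control ES, and 93.8 and 100.57 in control DMSO libraries. It fell by 0.58 on the log2 scale in FDX1-OE cells and by 0.44 in control cells, opposite to PSAT1 and ASNS in FDX1-OE cells. CTH, which makes cysteine from cystathionine, rose by 0.99 in FDX1-OE cells and by 0.51 in control cells, a call lost with no filter (0.0637) and without control DMSO replicate 1 (0.0675). The 7 calls of this list in control cells became 4 without that library.

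Among 22 other amino acid transporters, 7 rose and 8 fell in FDX1-OE cells, and 4 rose and 7 fell in control cells. These are 31.8% higher and 36.4% lower in FDX1-OE cells, against 37% and 19.2% of all genes, and 18.2% higher and 31.8% lower in control cells, against 25.5% and 12.9% of all genes. SLC1A4, a carrier of alanine, serine and cysteine, stood at 40.8 and 39.2 FPKM in FDX1-OE ES, 25.4 and 26.1 in FDX1-OE DMSO, 32.1 and 31.6 in control ES, and 23.9 and 24.0 in control DMSO libraries. Its log2 change under ES was 0.62 in FDX1-OE cells (adjusted p = 6.98e-06) and 0.40 in control cells (adjusted p = 0.000356). SLC43A1, a carrier of large neutral amino acids, rose by 0.64 in FDX1-OE cells and by 0.27 in control cells, and SLC6A9, a glycine carrier, had log2 differences of 0.67 in FDX1-OE cells and 0.48 in control cells. SLC6A9 reached 1 FPKM only in ES libraries and so passed the filter through them. It is counted among the transporters that rose, as a description. SLC38A5, a carrier of glutamine, fell by 0.63 in FDX1-OE cells and by 0.31 in control cells. SLC1A1, a glutamate carrier, fell by 0.36 in FDX1-OE cells and by 0.57 in control cells. Calls in control cells were lost without control ES replicate 1 for SLC43A1 (0.0501), SLC6A9 (0.103) and SLC38A5 (0.0724), on leaving out control DMSO replicate 2 for SLC43A1 (0.084), and on leaving out control DMSO replicate 1 for SLC6A9 (0.0767). They were also lost with RLE scaling for SLC43A1 (0.0503) and with no filter for SLC6A9 (0.058). The 11 calls of this list in control cells became 7 on leaving out control DMSO replicate 2 and 6 on leaving out replicate 1 of control ES.

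SLC7A11 had the widest span of group means among the 10 genes, 0.83 on the log2 scale. The 3 other genes with the most similar pattern over the 4 groups were NFKB2, a subunit of NF-kB, FGD2, an exchange factor for CDC42, and SLC66A3. Their centred group means differed from those of SLC7A11 by at most 0.0133, 0.0153 and 0.0222 on the log2 scale in that order. NFKB2 averaged 23.5 ± 1.66 FPKM in FDX1-OE ES, 13.2 ± 0.993 in FDX1-OE DMSO, 15.3 ± 1.26 in control ES and 13.0 ± 0.793 in control DMSO libraries (SD, n = 2 each). The likeness holds on the scale of log2(FPKM + 1), which understates changes at the level of SLC7A11. SLC7A11 averaged 2.05 FPKM in FDX1-OE ES, 0.745 in FDX1-OE DMSO, 1.04 in control ES and 0.719 in control DMSO libraries. As a ratio of mean FPKM, its ES change in FDX1-OE cells was 2.75, larger than that of NFKB2. The likeness describes 4 means and was not tested.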

How the data were processed

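The deposited values are FPKM per gene, made by the authors. The file headers state no unit, so it was read from the values. HISAT2, HTSeq, R 3.2.0 and hg19 are named in the submitters' processing notes. The program behind the FPKM, the annotation and any filter are not given in the sources. Whole reads to within 0.002 read could be fitted to the FPKM of 100% of genes and served for depth and for voom. They are ambiguous for 1806 genes above 0 in fewer than 3 libraries, PHGDH among them. The main test was limma 3.58.1 (R 4.3.3) on log2(FPKM + 1). It fitted 4 group means to 8 libraries with a mean trend (4 residual and 6.6 prior degrees of freedom), two-sided, with Benjamini-Hochberg adjustment. A gene entered with 1 FPKM or more in 2 or more libraries (9805 genes) and was called at an adjusted p below 0.05. Alternatives were log2(FPKM + 0.1), no filter, a mean of 5 FPKM or more, RLE scaling, voom, only the 4 libraries compared, a replicate block, and leaving out each library. Genes of the further lists are named when called with a log2 change of at least 0.5 under ES in either genotype, up to 6 a list, and ATF4, MYC and DDIT3 in any case. The members and lists were chosen with earlier results of these data known.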

Additional observations from a re-analysis of the deposited data

Results flagged for a closer look

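The response to ES differed between FDX1-OE and control cells by a test of the difference itself for 3 of the 9 genes tested, where 4.3% of all genes tested were called. The ES change in FDX1-OE cells minus that in control cells was 0.64 on the log2 scale for PSAT1, 0.56 for SLC7A11 and 0.33 for MTHFD2 (limma, adjusted p = 0.00366, 0.034 and 0.032 in that order). For PSAT1 both FDX1-OE ES libraries were above both FDX1-OE DMSO libraries, while control ES and control DMSO libraries overlapped. SLC7A11 entered the test only through its ES libraries, so its difference is a description. The calls of MTHFD2 and SLC7A11 were lost without any one of 7 of the 8 libraries, all but control ES replicate 1.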

How the results depend on the processing

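Of 660 values of single genes recomputed under the alternatives, 585 kept their direction and their side of the threshold, 45 kept the direction and missed the threshold, 11 newly passed it, and 19 turned sign. None of the 19 was called in the main test, and the cause was not tested. With RLE scaling the log2 change was -0.09 for SLC1A5 under ES in FDX1-OE cells, -0.06 for PSPH under ES in control cells, -0.03 for PSPH and -0.04 for SHMT2 between genotypes in ES, and -0.04 for the interaction of SHMT2. The other sign changes came with 1 library left out. The range was then -0.1 to 0.02 for SLC7A5 under ES in FDX1-OE cells, and, under ES in control cells, -0.01 to 0.06 for PSPH and -0.12 to 0.01 for PSAT1. Between genotypes in DMSO it was 0.0 to 0.13 for ASNS, -0.02 to 0.02 for SHMT2, -0.01 to 0.05 for MTHFD2 and -0.11 to 0.03 for SLC3A2. Between genotypes in ES it was -0.01 to 0.06 for PSPH and -0.02 to 0.03 for SHMT2, and for the interaction of SHMT2 -0.01 to 0.04.

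Genes called between genotypes in DMSO, 50 in number, became 2 with no filter, 82 with voom and 15 to 68 with 1 library left out. In ES the 2094 became 748 to 1944. The 422 interaction calls became 222 with log2(FPKM + 0.1), 176 with no filter, 641 with voom and 79 to 630 with 1 library left out. Of the 9 genes, interaction calls became 6 with voom and 1 to 4 with 1 library left out, against 3. Those under ES in control cells became 2 to 4, against 5. Alternatives for the further lists were added after seeing the data. Between genotypes in ES, 21.4% of all genes were called, 13.6% higher and 7.78% lower. Of 16 regulators and stress genes of the ATF4 response, 11 were higher (68.8%) and 0 lower. The 11 include CHAC1 and ATF3 as a description. Of 20 one-carbon genes, 3 were higher (15%), AMT among them as a description, and 4 lower (20%). Of 16 synthesis genes, 3 were higher (18.8%) and 2 lower (12.5%), and of 22 transporters, 6 were higher (27.3%) and 1 lower (4.55%). Leaving out 1 library took the 7 one-carbon genes to as few as 0, the 5 synthesis genes to 1 and the 7 transporters to 1. Replicate numbers come from the sample titles, which do not say that they mark a shared culture, and deviations from group means correlated between -0.18 and 0.181 across genes, over 0.1 in 3 of the 6 pairs of groups and below it in the other 3. The numbers are therefore not taken to pair the libraries. With the replicate block, 5 of the 9 genes had an interaction call, and 526 genes in all. The FPKM carry no measure of total RNA per cell, and 2 libraries a group limit the precision.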
